A study of Mus musculus with 8 samples.

Results

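The genes described here are 45 genes of the G1/S transition and of DNA replication, taken by symbol from a list and found in a table of 23478 mouse genes counted by RNA sequencing. The list was not chosen by any threshold on the counts, and all 45 members passed the filter on low counts. The 8 libraries fall into 4 groups of 2, which the labels call biological replicates. DCC control and DCC IFN-gamma are disseminated cancer cells (DCC) that came from the marrow of mice whose breast cancer had spread on its own, and that were then cultured, the first as the control and the second with interferon-gamma, the main cytokine of Th1 cells. Early lesion holds cancer cells isolated from an early lesion of the mammary gland, and its titles name neuT, an activated form of the rat Erbb2 oncogene. TUBO is a breast cancer cell line, known as a line from a neuT mammary tumour, so its replicates are samples of 1 line. All 4 groups carry the genotype label WT, and no label gives an age, the number of animals behind a library, or the dose and duration of interferon-gamma. The design text asks how disseminated cells compare with primary and metastatic tumours, and how CD4 Th1 immunity acts on expression.

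As background, a cell commits to division in G1 when cyclin D and cyclin E kinases phosphorylate the retinoblastoma proteins and release E2F transcription factors, which turn on most of the genes described here. In G1 the origin recognition complex, Cdc6 and Cdt1 load the MCM helicase onto origins, a step called licensing. In S phase Cdc45, the GINS complex and Mcm10 switch the helicase on, primase and the polymerases copy the strands, and the clamp Pcna, its loader RFC, the nuclease Fen1 and the ligase Lig1 finish the lagging strand. Ribonucleotide reductase, thymidylate synthase and thymidine kinase supply nucleotides, and the CAF-1 complex places histones on the new DNA. Geminin stops Cdt1 after licensing. Interferon-gamma slows growth in many cell types.

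The promoters of several members show the E2F letters directly. In the RefSeq windows used here (GRCm38.p6, 250 bases before to 50 after a gene's start), 37 of the 45 members had a window. The E2F motif was searched as TTTCCCGC, TTTCGCGC, TTTGCCGC and TTTGGCGC on both strands. It was found in 15 of the 37 member promoters (40.5%) and in 704 of the promoters of 27025 genes (2.6%). Of the 15 members, 10 had a match before the start and 5 only after it. The following stretches of 120 bases are shown because Mcm6, Mcm5 and Rfc3 have a match before their start and are the 3 such members with the largest increases among those called after interferon-gamma. They are written 5′ to 3′ along the gene's strand, with the matches in capitals. The matches in the Mcm6 stretch begin 110, 106 and 47 bases before the start, and the first and second share bases. In Mcm5 they begin 153 and 149 bases before the start and also share bases, and in Rfc3 the match begins 10 bases before it.
Mcm6, chr1:128359716-128359835, minus strand: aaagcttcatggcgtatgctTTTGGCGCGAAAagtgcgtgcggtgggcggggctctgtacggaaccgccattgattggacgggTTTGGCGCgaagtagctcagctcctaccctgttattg
Mcm5, chr8:75109336-75109455, plus strand: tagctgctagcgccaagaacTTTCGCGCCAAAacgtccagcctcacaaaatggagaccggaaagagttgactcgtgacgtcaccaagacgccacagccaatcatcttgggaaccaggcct
Rfc3, chr5:151651209-151651328, minus strand: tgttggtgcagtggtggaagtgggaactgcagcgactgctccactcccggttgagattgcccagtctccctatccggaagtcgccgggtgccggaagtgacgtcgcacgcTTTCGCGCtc
In Cdt1 and Mcm3, which had the largest increase of all and a similarly large one, the matches lay just after the start. These 30-base sites are shown for that reason.
Cdt1, chr8:122568035-122568064, plus strand: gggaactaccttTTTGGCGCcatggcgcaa
Mcm3, chr1:20820266-20820295, minus strand: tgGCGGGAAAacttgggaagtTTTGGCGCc

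The share of promoters with an E2F motif was 40% among the members called higher after interferon-gamma (8 of 20 with a window) and 43.8% among those not called (7 of 16). With 1 T fewer at the start of each form, which gives 7 letters, these shares were 75% (15 of 20) and 56.2% (9 of 16), so the order of the groups depends on the motif's length. It was 28.6% in a list of other replication genes, 33.3% in a list of G1/S regulators and 4.35% in a list of G2/M genes (1 of 23). The cell cycle homology element TTTGAA, a short motif common in promoters of G2/M genes, was in 17 of 23 G2/M promoters (73.9%), in 10.8% of member promoters and in 20.2% of all. Each motif was read on both strands, and matches of different motifs could overlap. These matches describe letters, not bound sites.

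Each library had between 15432210 and 30168475 reads on genes, and between 18.3% and 49.2% of all reads fell outside annotated genes, most in DCC control replicate 1 (49.2%) and early lesion replicate 2 (44.1%). These 2 libraries are the ones that stand apart, and counts that rest on them are also given without them. Levels are CPM, counts per 1000000 reads on genes after TMM scaling. As a check of the labelled cell types, 12 epithelial markers summed to 3214 to 3396 CPM in early lesion and 6110 to 6575 in TUBO. The same markers summed to 4.51 to 6.38 CPM in DCC control and 0.367 to 0.459 CPM in DCC IFN-gamma, where 8 of 12 had no count (Epcam, Krt14, Krt5, Cldn3, Cldn4, Cldn7, Esrp1 and Grhl2). The defining markers of mammary epithelium were therefore nearly absent from the cells labelled disseminated cancer cells. Of 14 fibroblast and osteoblast markers the sum was 9743 to 11235 CPM in DCC control, 841 to 1378 in DCC IFN-gamma, 44.4 to 49.7 in early lesion and 131 to 146 in TUBO. Summed levels of 16 macrophage markers were 146 to 150, 1320 to 1741, 102 to 111 and 78.9 to 112 CPM in the same order. Most of the sum in early lesion and TUBO was Cd14 alone, at 94.1 and 98 CPM and at 73.9 and 107 CPM. Cd14 was at 12.3 and 11.3 CPM in DCC control and 43.1 and 65.7 CPM in DCC IFN-gamma. Similar macrophage sums therefore do not mean a similar macrophage content. Few genes also made up most of the fibroblast and osteoblast sum. In DCC control they were Col1a1 (3894 and 4273 CPM) and Col3a1 (2965 and 3628 CPM). In TUBO Alpl alone had 90 and 84.3 CPM, against 6.71 and 4.37 CPM in early lesion. The higher sum in TUBO than in early lesion therefore does not by itself mean more cells of these types. Lymphoid, erythroid and neutrophil markers stayed at or under 4.48 CPM in every library. In such bulk samples, fewer cells of a type and less RNA per cell cannot be told apart.

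The members were lowest as a group in DCC control and highest in early lesion. Their summed level was 740 and 789 CPM in DCC control replicates 1 and 2, 1378 and 1227 CPM in DCC IFN-gamma, 3534 and 3195 CPM in early lesion, and 1268 and 1221 CPM in TUBO. DCC IFN-gamma and TUBO overlapped, and both lay between the other groups without overlap with them. By member, the mean level was highest in early lesion for 44 of 45, the exception being Cdt1, which was highest in DCC IFN-gamma. It was lowest in DCC control for 37, in TUBO for 5 (Orc6, Rfc1, Rpa1, Ccne1 and E2f1) and in DCC IFN-gamma for 3 (Pola1, Tyms and Tk1). The order early lesion, TUBO, DCC IFN-gamma, DCC control held for 20 members, and the order with TUBO and DCC IFN-gamma exchanged held for 16.

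**Figure D1:**
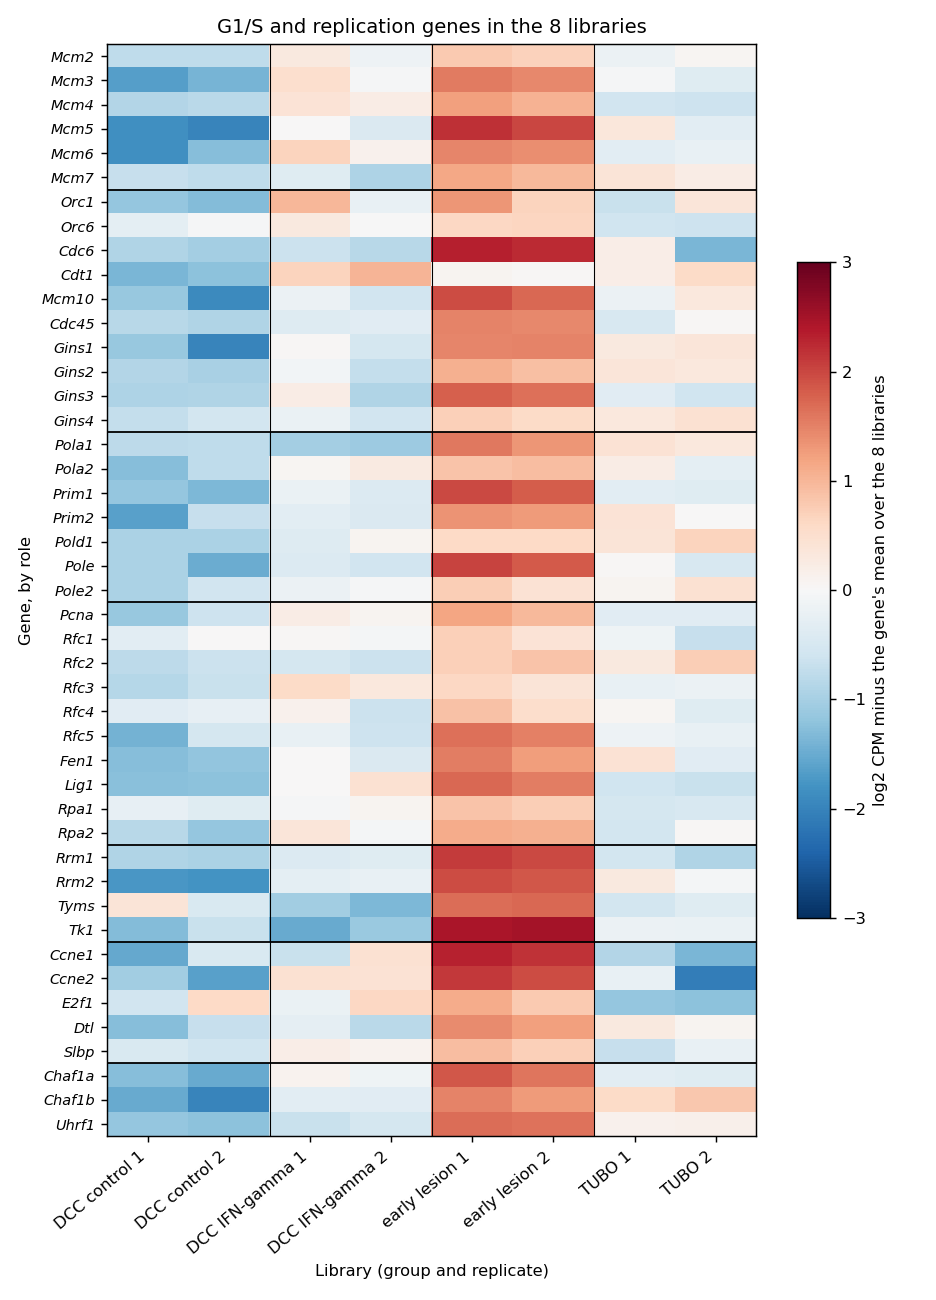
Levels of the 45 members in the 8 libraries, as log2 CPM minus the gene's mean over the libraries (colour scale), with genes in rows grouped by role and libraries in columns. The early lesion columns are the highest for most rows and the DCC control columns the lowest, while Cdt1 is highest in the DCC IFN-gamma columns.

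Levels per kilobase were divided by the merged exons of all annotated transcripts of a gene. That length can exceed the length of the transcript expressed, so comparisons between genes are approximate. On this scale Pcna was the most abundant member in each group. It had 34 CPM per kb in DCC control, 68.9 in DCC IFN-gamma, 130 in early lesion and 48.8 in TUBO. Orc1, the largest subunit of the origin recognition complex, was the least abundant in DCC control (0.299 CPM per kb), early lesion (1.43) and TUBO (0.668), and Cdc6 was the least abundant in DCC IFN-gamma (0.743). The 6 MCM subunits form 1 ring with a single copy of each, but their transcripts were unequal. The ratio of the highest to the lowest subunit was 2.39 and 3.32 in the TUBO libraries, 2.94 and 2.78 in those of early lesion, 4.48 and 5.34 with interferon-gamma and 6.58 and 7.69 in the DCC controls. Mcm5 was the lowest subunit in every DCC and TUBO library and Mcm2 in early lesion. The place of Mcm2 rests on its length, since its CPM in early lesion (128 and 119) lay above that of Mcm5 (125 and 110). Mcm4 was the highest in the DCC and early lesion libraries and Mcm7 in TUBO. The level of Cdt1 per kilobase was 1.46 and 2.6 times that of its inhibitor geminin (Gmnn) in DCC control and 3 and 3.33 times in DCC IFN-gamma. TUBO had 1.27 and 1.63 times the geminin level, and early lesion only 0.312 and 0.346 times. Early lesion was thus the only group in which geminin transcripts exceeded those of Cdt1. For the cyclins E, the ratio of Ccne1 to Ccne2 per kilobase was 1.34 and 1.36 in the early lesion libraries. It was 0.743 and 1.9 in TUBO, 0.541 and 1.18 with interferon-gamma and 0.831 and 2.65 in the DCC controls, so only the early lesion libraries agreed on it.

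Replicates of a group were close for most members. Over the genes counted in each pair, the DCC IFN-gamma replicates differed most, with a chi-square per degree of freedom of 160. It was 17.4 in DCC control, 18.5 in early lesion and 33.5 in TUBO. The median member differed between replicates 1.14-fold in DCC control, 1.24-fold in DCC IFN-gamma, 1.11-fold in early lesion and 1.21-fold in TUBO. Wider gaps were those of E2f1 in DCC control (2.24-fold), Orc1 in DCC IFN-gamma (2.32-fold) and Ccne2 and Cdc6 in TUBO (3.62-fold and 2.96-fold).

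The comparison of DCC IFN-gamma with DCC control asks how the cytokine changed these genes. With interferon-gamma 22 of the 45 members rose, 1 fell (Tyms) and 22 were not called, against 12.6% of all 17069 tested genes called higher and 8.83% called lower. Calls were made by the quasi-likelihood test of edgeR at an adjusted p under 0.05 (Benjamini-Hochberg, over all tested genes). The median log2 fold change was 0.72 over the members and -0.20 over all tested genes, and 42 members had a positive value. In 33 members both DCC IFN-gamma libraries lay above both DCC control libraries, an arrangement that 28.3% of all tested genes showed, and in 2 (Pola1 and Tyms) both lay below, as in 37.8% of all. Upper quartile scaling moved the median of all tested genes to -0.40. It left 14 members higher and 37 positive, and it changed the split of all calls from 2148 higher and 1508 lower to 1526 and 2221. Without DCC control replicate 1, or without replicate 2, 14 members were called higher, and with both libraries that stand apart left out 9 were. Those 9 (Mcm3, Mcm4, Mcm5, Mcm6, Cdt1, Lig1, Rrm2, Chaf1a and Chaf1b) were called higher in each of the 16 alternative settings run. Over the same comparison, 11 of 16 macrophage markers were called higher and 0 lower. Of 13 tested fibroblast and osteoblast markers 8 were called lower and 1 higher (Pdgfra, from 21.9 and 28.1 to 64.5 and 115 CPM). The part of these cell types in the members' changes was not tested.

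**Figure D2:**
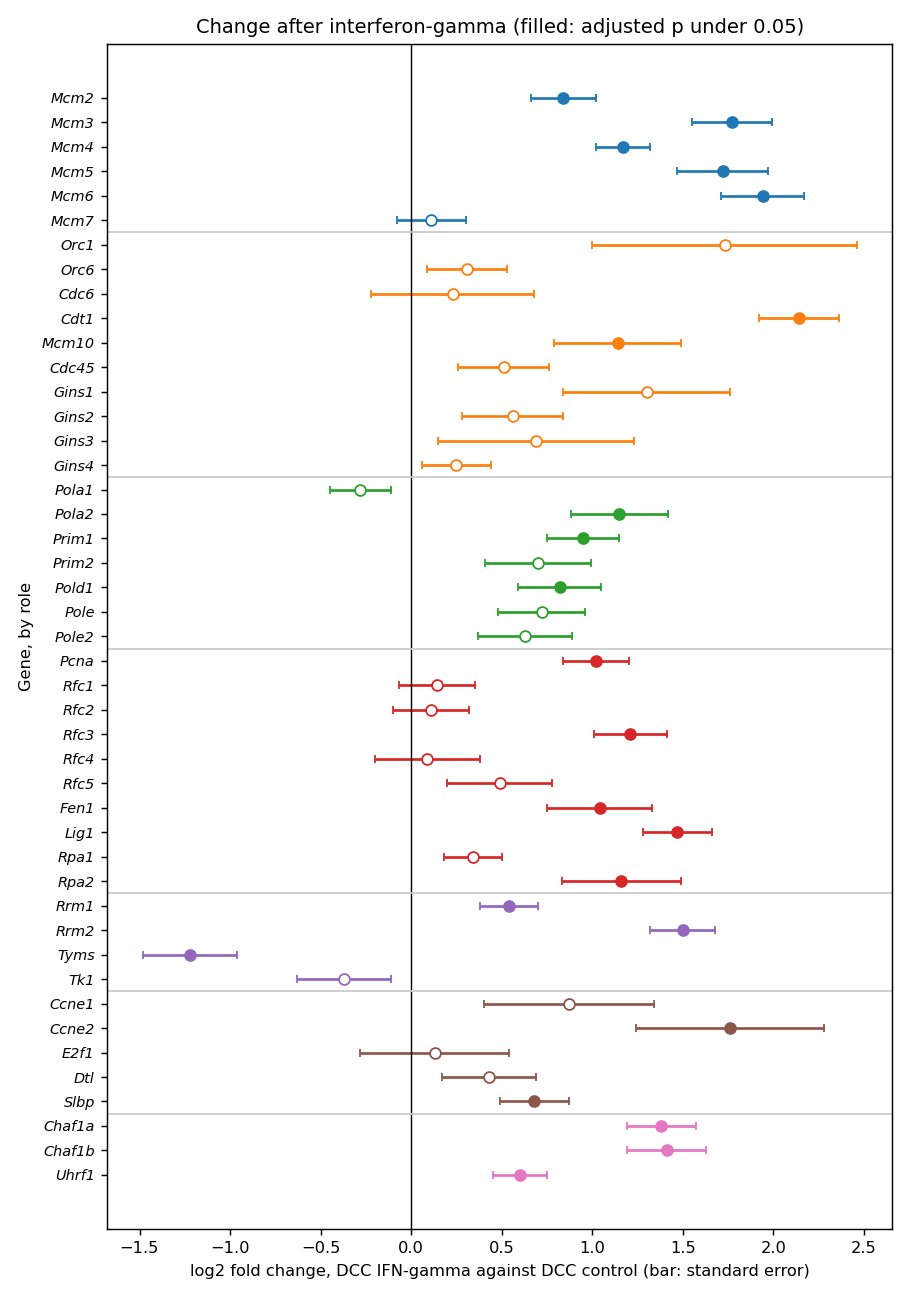
Log2 fold change of each member, DCC IFN-gamma minus DCC control (horizontal axis, with bars of 1 standard error), with genes grouped by role and filled points for members called at an adjusted p under 0.05. Cdt1 at 2.14 is the highest and Tyms at -1.22 the lowest.

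The MCM helicase rose as a near whole: 5 of its 6 subunits were called higher, with a median log2 fold change of 1.44. That is 83.3%, beside 12.6% of all tested genes. Mcm6 (chromosome 1, 128331590 to 128359664) measured 15 and 22.3 CPM in DCC control, and 85.6 and 58.5 CPM in DCC IFN-gamma. Its log2 fold change was 1.94 ± 0.23 (SE, as in all such values here), or 3.85-fold (adjusted p = 2.85e-04). Mcm3 (chromosome 1, 20802968 to 20820312) measured 16.4 and 19.7 CPM before and 73.4 and 50.1 after, a change of 1.77 ± 0.22 (adjusted p = 3.22e-04). In both genes DCC IFN-gamma replicate 1 was the higher library, and the lower one still lay well above both controls. Mcm5 rose from 7.6 and 6.89 to 27.4 and 20.3 CPM, a change of 1.72 ± 0.25 (adjusted p = 8.75e-04). Mcm4 rose from 44.9 and 47.6 to 110 and 97.3 CPM, a change of 1.17 ± 0.15 (adjusted p = 4.16e-04). These 4 subunits held in every setting. Mcm2, which began at a higher level of 43.9 and 43.8 CPM, reached 90.9 and 66.7 CPM (0.84 ± 0.18, adjusted p = 0.00762). Mcm2 was no longer called without DCC control replicate 1 (adjusted p = 0.051) or without both libraries that stand apart (0.1). Mcm7 was the exception, with 42.7 and 40.6 CPM in DCC control against 54 and 36.2 CPM in DCC IFN-gamma, values that overlap (0.11 ± 0.19, adjusted p = 0.696). Mcm7 shares its locus with genes on the other strand (Cops6 and Ap4m1). The strand setting is not given, so reads of such overlapping genes may not have been kept apart. The same limit holds for other members, among them Lig1 (Zswim9), Chaf1a (Ubxn6), Fen1 (Tmem258) and Ccne2 (Ints8), which were called. It also holds for Orc6 (Vps35) and Rfc4 (Eif4a2), which were not. Among called members, Cdt1 (Gm20388), Chaf1b (Gm49617) and Rrm1 (Gm45399) overlap a gene on the same strand. A strand setting would not keep such reads apart.

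Among the 10 genes of origin licensing and firing, Cdt1 and Mcm10 were called higher. That is 20%, beside 12.6% of all tested genes. All 10 had positive values (median 0.62), and in 9 both DCC IFN-gamma libraries lay above both DCC control libraries, as in 28.3% of all tested genes. Cdt1 (chromosome 8, 122568015 to 122573554), the factor that brings the MCM ring to the origin, measured 9.48 and 10.4 CPM in DCC control and 38.7 and 49.2 CPM in DCC IFN-gamma. This was the largest increase of any member, at 2.14 ± 0.22 or 4.41-fold (adjusted p = 1.05e-04), and the groups lay far apart. Cdc6, its partner in loading, measured 3.46 and 3.17 CPM before and 4.14 and 3.63 after (0.23 ± 0.45, adjusted p = 0.733). Cdt1 was thus called and Cdc6 was not, and the difference between their changes was not tested. Mcm10 rose from 3.59 and 2.1 to 7.07 and 5.3 CPM (1.14 ± 0.35, adjusted p = 0.0452). This call sat near the threshold and held in 7 of 16 settings, with an adjusted p of 0.253 without DCC control replicate 2, 0.0812 and 0.0767 without either early lesion library, and 0.126 without DCC IFN-gamma replicate 1. The largest value without a call was that of Orc1, at 1.09 and 0.99 CPM in DCC control against 4.84 and 2.09 CPM (1.73 ± 0.73, adjusted p = 0.122), with a wide gap between the treated libraries. Gins1 stood at 2.01 and 1.11 CPM before and 4.54 and 3.04 after (1.30 ± 0.46, adjusted p = 0.0716) and was called with DESeq2 (0.0494) and without DCC IFN-gamma replicate 2 (0.0369). Orc6, Cdc45, Gins2, Gins3 and Gins4 had log2 fold changes between 0.25 and 0.69 and were not called, though Gins2, at 0.56, reached 0.87 without DCC IFN-gamma replicate 2 (adjusted p = 0.038).

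Of the 7 polymerase and primase genes, 3 rose (42.9%, beside 12.6% of all tested genes), with a median of 0.72. Pola2, the accessory subunit of polymerase alpha, measured 5.96 and 8.43 CPM in DCC control and 14.9 and 17.2 CPM in DCC IFN-gamma (1.15 ± 0.27, adjusted p = 0.0137). Prim1, the catalytic primase subunit, rose from 8.08 and 7.05 to 15.7 and 13.5 CPM (0.95 ± 0.20, adjusted p = 0.00663). Pold1, the catalytic subunit of the lagging strand polymerase delta, rose from 10 and 9.94 to 14.7 and 20.5 CPM (0.82 ± 0.23, adjusted p = 0.0283). Each of the 3 calls depended on the controls: Pola2 missed the threshold without DCC control replicate 1 (adjusted p = 0.0999), Prim1 without replicate 2 (0.0547) and Pold1 without either (0.111 and 0.104). Pold1 also missed it without DCC IFN-gamma replicate 2 (0.0878) and without either early lesion library (0.0545 and 0.0544). Pola1, the catalytic subunit of polymerase alpha, lay at 20.3 and 20.7 CPM before and 17.2 and 16.6 CPM after, below without overlap but not called (-0.28 ± 0.17, adjusted p = 0.251). Within polymerase alpha and primase, the values thus ran from -0.28 for Pola1 to 1.15 for Pola2. Pole, the leading strand polymerase, stood at 13.4 and 9.18 CPM before and 19.4 and 17.5 after (0.72 ± 0.24, adjusted p = 0.0592). It was called in 6 of 16 settings, among them the fits without DCC control replicate 1 (0.0467), DCC IFN-gamma replicate 2 (0.043) and either TUBO library (0.0449 and 0.0458). Prim2 and Pole2, subunits of primase and of the leading strand polymerase, were not called (0.70 ± 0.29 and 0.63 ± 0.26), though Prim2 reached 1.26 without DCC control replicate 2 (adjusted p = 0.015).

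The clamp, its loader, the lagging strand enzymes and the single-strand binding proteins gave 5 increases in 10 genes (median 0.75). That is 50%, beside 12.6% of all tested genes. Pcna, the sliding clamp, measured 67.2 and 96.1 CPM in DCC control and 173 and 158 CPM in DCC IFN-gamma (1.02 ± 0.18, adjusted p = 0.00332). Lig1, which seals the fragments of the lagging strand, rose from 13.1 and 13.3 to 31 and 42.3 CPM, the largest change of this role (1.47 ± 0.19, adjusted p = 5.23e-04). Fen1, which trims their ends, rose from 6.56 and 7.01 to 16.2 and 11.8 CPM (1.04 ± 0.29, adjusted p = 0.0302), a call lost without either DCC control library (0.131 and 0.0763) and without DCC IFN-gamma replicate 1 (0.0912). Of the 5 subunits of the RFC clamp loader, Rfc3 was the only one called. It rose from 14 and 16 to 38.1 and 31.6 CPM (1.21 ± 0.20, adjusted p = 0.00173), while Rfc1, Rfc2, Rfc4 and Rfc5 had log2 fold changes of 0.14, 0.11, 0.09 and 0.49 and overlapping libraries. The values of Rfc1, Rfc2 and Rfc4 turn negative with upper quartile scaling. Rpa2, a subunit of the protein that coats single strands, rose from 4.86 and 3.88 to 11.2 and 8.26 CPM (1.16 ± 0.33, adjusted p = 0.0334), with an adjusted p of 0.161 without DCC control replicate 2, 0.0773 without replicate 1, 0.124 without DCC IFN-gamma replicate 1, and 0.0603 and 0.06 without either early lesion library. Its larger partner Rpa1 was at 34.6 and 31.6 CPM before and 40.1 and 43.6 after (0.34 ± 0.16, adjusted p = 0.162). The calls of Pcna and Rfc3 were lost only with both libraries that stand apart left out (0.0679 and 0.0529).

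Nucleotide supply was the only role with calls in both directions. Of its 4 genes 2 were called higher and 1 lower, beside 12.6% and 8.83% of all tested genes. Rrm2, the regulated subunit of ribonucleotide reductase, measured 9.79 and 9.54 CPM in DCC control and 26.8 and 28 CPM in DCC IFN-gamma, with replicates nearly equal (1.50 ± 0.18, adjusted p = 2.40e-04). Rrm1, the large subunit, rose from 34.3 and 33.5 to 48.7 and 50.1 CPM (0.54 ± 0.16, adjusted p = 0.0362), a call that held in 9 of 16 settings and was lost without either DCC control library (0.141 and 0.157) or either early lesion library (0.0637 and 0.0622). Tyms (chromosome 5, 30058202 to 30073617), which makes the thymidylate for DNA, was the member that fell. It measured 56.7 and 31.4 CPM in DCC control and 20.8 and 16.9 CPM in DCC IFN-gamma (-1.22 ± 0.26, adjusted p = 0.00833). DCC control replicate 1 was the highest of the 4 libraries, and without it the call was lost (adjusted p = 0.0554), as it was without both libraries that stand apart (0.134). A pseudogene of the same name, Tyms-ps, had 25 and 14 counts in the controls and 0 in both treated libraries, beside 933, 792, 567 and 406 counts of Tyms, and reads of such copies are uncertain. Tk1, the salvage enzyme for thymidine, had overlapping libraries at 4.62 and 7.17 CPM against 4 and 5.21 CPM (-0.37 ± 0.26, adjusted p = 0.318).

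In G1/S control, Ccne2 and Slbp rose and E2f1, Ccne1 and Dtl were not called. Ccne2, a cyclin E, rose from 2.98 and 1.98 to 8.36 and 8.3 CPM (1.76 ± 0.52, adjusted p = 0.0403), a call that held in 7 of 16 settings and was lost when any of the 4 DCC libraries was left out (adjusted p between 0.108 and 0.219) or either early lesion library (0.0512 and 0.0543). Ccne1, the other cyclin E, stood at 1.88 and 4 CPM before and 3.45 and 7.47 after, where the libraries overlap (0.87 ± 0.47, adjusted p = 0.216, and 0.0438 without DCC IFN-gamma replicate 1). E2f1, the activator of this programme, measured 6.81 and 15.3 CPM in DCC control and 8.72 and 15.6 CPM in DCC IFN-gamma (0.13 ± 0.41, adjusted p = 0.834). The spread between replicates was larger than the difference of the means, and the sign turned with upper quartile scaling. Slbp, which binds the stem-loop at the end of histone transcripts, rose from 31.5 and 28.5 to 49.8 and 46.3 CPM (0.68 ± 0.19, adjusted p = 0.0308), and its call was lost without either DCC control library (0.0944 and 0.146) and without early lesion replicate 2 (0.0504). Dtl, the receptor that marks Cdt1 for destruction in S phase, was at 8.87 and 13.4 CPM before and 17.9 and 12.3 CPM after (0.43 ± 0.26, adjusted p = 0.254, and 0.0484 without DCC IFN-gamma replicate 2).

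All 3 genes of chromatin assembly and maintenance rose (median 1.38), beside 12.6% of all tested genes. Chaf1a and Chaf1b, subunits of CAF-1, rose from 9.85 and 8.39 to 25.5 and 21.8 CPM (1.38 ± 0.19, adjusted p = 7.58e-04) and from 7.23 and 5.19 to 16.6 and 16.2 CPM (1.41 ± 0.22, adjusted p = 0.00147). Their changes were alike in size and both held in every setting. Uhrf1, which passes DNA methylation to new strands, rose from 21.6 and 20.7 to 30.7 and 33.6 CPM (0.60 ± 0.15, adjusted p = 0.0152), with the call lost without either DCC control library (0.0723 and 0.107).

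**Figure D3:**
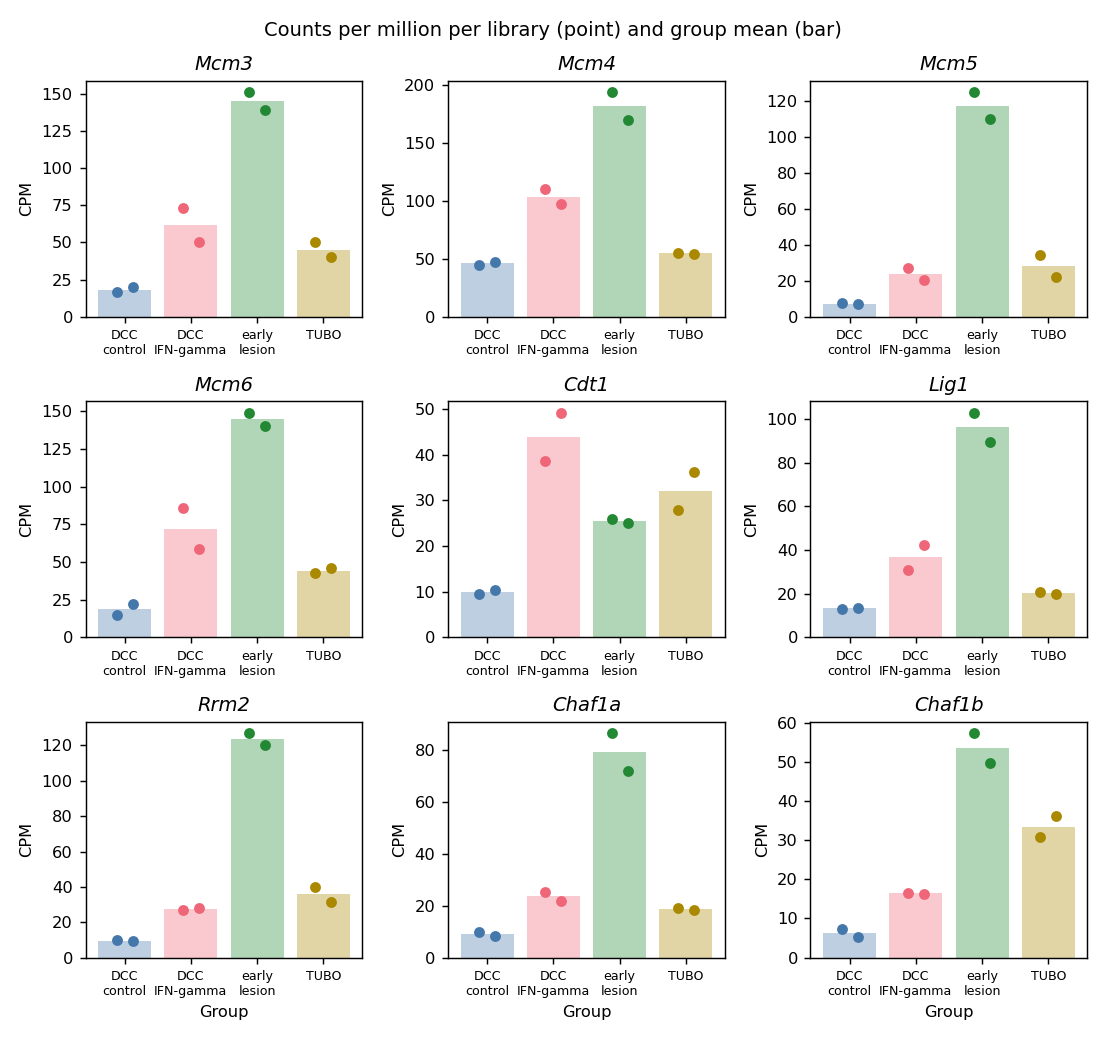
Levels of the 9 members called higher after interferon-gamma in every setting, in CPM for each library (points) with the group mean (bars from 0), for the 4 groups. In each gene both DCC IFN-gamma points lie above both DCC control points, and only in Cdt1 do they lie above early lesion.

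Other cell cycle genes are given from lists made alongside the members. Of 46 other replication genes 10 rose and 3 fell, with a median log2 fold change of 0.22. That is 21.7% and 6.52%, beside 12.6% and 8.83% of all tested genes. Gmnn, the inhibitor of Cdt1, rose by 1.41 ± 0.30, from 3.04 and 1.86 to 6.01 and 6.88 CPM, with an adjusted p of 0.0569 without DCC control replicate 2. Pold4, a small subunit of polymerase delta, rose from 33.6 and 39 to 57.6 and 111 CPM (1.21 ± 0.30) and was not called without DCC control replicate 1 (0.138) or 2 (0.076). Rrm2b, Orc3 and Mtbp fell by 0.69, 0.66 and 0.60 on the log2 scale. None of those 3 calls held without DCC control replicate 1 or without replicate 2 (adjusted p between 0.0546 and 0.302). Rrm2b was also lost without DCC IFN-gamma replicate 1 (0.112), Orc3 and Mtbp without DCC IFN-gamma replicate 2 (0.0608 and 0.158), Rrm2b and Mtbp without either early lesion library (between 0.0566 and 0.0889), and Mtbp without either TUBO library (0.0725 and 0.0615). With both libraries that stand apart left out, 4 genes of the list were called higher and 0 lower.

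Of 31 G1/S regulators 6 rose and 5 fell (median 0.12). That is 19.4% and 16.1%, beside 12.6% and 8.83% of all tested genes. Ccnd1, the cyclin D that starts the phosphorylation of the retinoblastoma family, rose from 342 and 404 to 2760 and 2156 CPM (2.72 ± 0.21, adjusted p = 1.74e-05). Its partner kinase Cdk6 rose from 28.4 and 30.2 to 102 and 91.1 CPM (1.72 ± 0.18), and Rbl1, a retinoblastoma family repressor, from 10.2 and 14 to 47.3 and 32.7 CPM (1.72 ± 0.23). These 3 calls held in all 16 settings. Rbl2, a relative of Rbl1, fell from 39.5 and 45.6 to 16.5 and 27.2 CPM (-0.96 ± 0.24), so the pair moved in opposite directions. Rbl2 was not called without DCC control replicate 2 (adjusted p = 0.062). Fbxo5, an inhibitor of the anaphase promoting complex, fell from 13.5 and 13.7 to 6.96 and 5.01 CPM (-1.18 ± 0.28), a call lost without DCC control replicate 1 (0.0519). Cdkn1b, a cyclin kinase inhibitor, fell from 88.5 and 66.4 to 21.7 and 45.6 CPM (-1.20 ± 0.32), a call lost without DCC control replicate 1 (0.163) or 2 (0.0588) and without either TUBO library (0.0504 and 0.0657). With both libraries that stand apart left out, 4 regulators were called higher and 0 lower.

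Of 28 G2/M and mitosis genes 0 rose and 13 fell, with a median of -0.84. The 13 are 46.4%, beside 8.83% of all tested genes called lower. Kif20a, a kinesin of cytokinesis, fell from 43 and 49 to 9.86 and 22.3 CPM (-1.52 ± 0.34), Ccnb2, a mitotic cyclin, from 12.9 and 14.6 to 2.2 and 6.88 CPM (-1.61 ± 0.44), and Cdc25c, a phosphatase that starts mitosis, from 6.2 and 4.35 to 1.47 and 2.25 CPM (-1.50 ± 0.30). The calls of Kif20a and Ccnb2 were lost without either DCC control library (adjusted p between 0.0683 and 0.216), and that of Ccnb2 also without either TUBO library (0.0763 and 0.0819). Of 58 tested genes for replication-dependent histones, whose transcripts are made in S phase, 0 rose and 21 fell (median -0.93). The 21 are 36.2%, beside the same 8.83%. Hist2h4 fell from 346 and 217 to 30.7 and 34.3 CPM (-3.11 ± 0.24) in every setting, while Hist1h2ad had 0.243 and 1.46 CPM in DCC control and no count in DCC IFN-gamma. Histone genes have near-identical copies, so single genes among them are uncertain. Leaving out both libraries that stand apart left 4 G2/M genes and 11 histone genes called lower. The summed level of the members rose 1.7-fold from DCC control to DCC IFN-gamma, that of the other replication genes 1.23-fold, and those of the G2/M genes and histones went to 0.618 and 0.531 times, as sums with no test. Per library, the ratio of the members' sum to that of the G2/M genes was 3.27 and 1.78 with interferon-gamma. It was 0.934 and 0.784 in the DCC controls, 0.861 and 0.981 in TUBO and 0.507 and 0.545 in the early lesion libraries. DCC IFN-gamma was the only group with a ratio above 1.

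**Figure D4:**
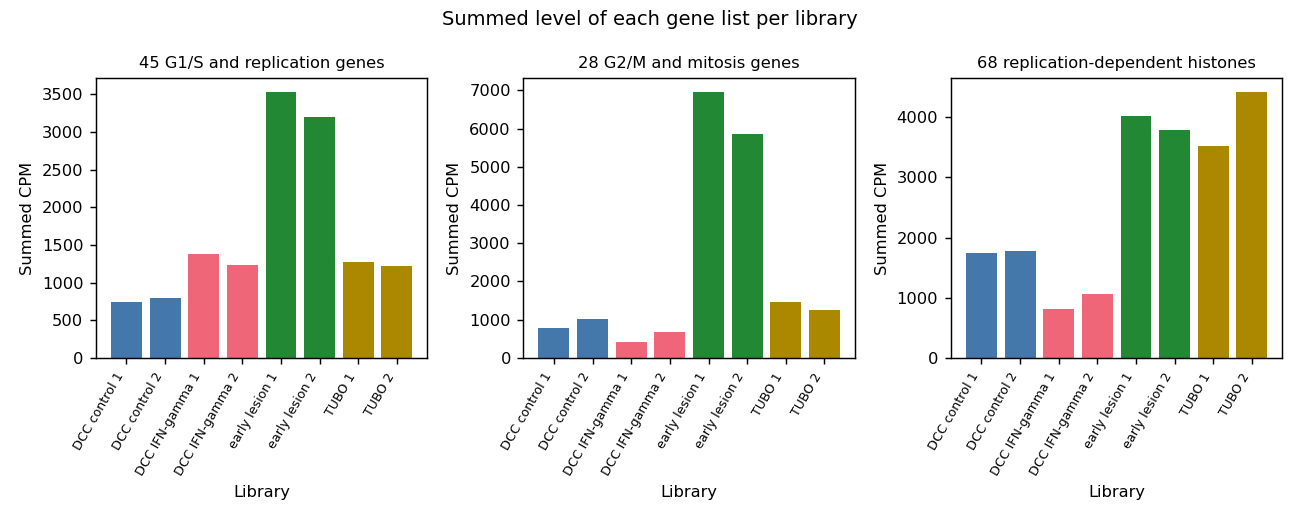
Summed level in CPM of the 45 members, 28 G2/M genes and 68 histone genes in each of the 8 libraries (1 bar per library, coloured by group, on axes from 0). The members' sum is higher in both DCC IFN-gamma libraries (1378 and 1227 CPM) than in both DCC control libraries (740 and 789 CPM), while the G2/M and histone sums are lower.

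DCC control was then compared with early lesion and with TUBO, the comparisons of disseminated cells with tumour cells, which use the same 2 DCC control libraries. Against early lesion 44 of 45 members were lower in DCC control and 0 higher, where 18.7% of all tested genes were called lower and 19.1% higher. The median log2 fold change was -2.27 over the members and 0.23 over all tested genes. All 45 members had both DCC control libraries below both early lesion libraries, as did 31.8% of all tested genes. The summed level of the members was 4.4 times higher in early lesion. Between 40 and 44 members were called lower when any 1 library was left out, and 39 were called in all 16 settings. Epithelial markers differ between these groups far more than the members do, and their part in the result was not tested.

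Mcm5 had the largest difference. It measured 7.6 and 6.89 CPM in DCC control and 125 and 110 CPM in early lesion, which is 16.2-fold higher in early lesion (-4.02 ± 0.27, adjusted p = 1.20e-06). Rrm2, at 9.79 and 9.54 CPM against 127 and 120 CPM, followed at -3.67 ± 0.19 (adjusted p = 1.92e-07). In licensing and firing, Mcm10 differed most, with 3.59 and 2.1 CPM against 31 and 26.2 CPM (-3.34 ± 0.37, adjusted p = 4.96e-05). Among the polymerases and primase it was Prim1, with 8.08 and 7.05 CPM against 70.6 and 63.5 CPM (-3.15 ± 0.20, adjusted p = 1.10e-06). Lig1 led the lagging strand enzymes with 13.1 and 13.3 CPM against 103 and 89.6 CPM (-2.87 ± 0.20, adjusted p = 1.89e-06). Ccne2 led G1/S control with 2.98 and 1.98 CPM against 26.7 and 23.6 CPM (-3.35 ± 0.55, adjusted p = 8.40e-04). Chaf1a led chromatin assembly with 9.85 and 8.39 CPM against 86.6 and 72.1 CPM (-3.12 ± 0.20, adjusted p = 1.09e-06). In each of these genes the early lesion libraries were close to each other and several times above both DCC control libraries. E2f1, at 6.81 and 15.3 CPM against 21.9 and 17.4 CPM, was the only member not called (-0.82 ± 0.41, adjusted p = 0.151), and it was called without DCC control replicate 2 (0.0199). All 28 G2/M genes (median -2.70) and 45 of 58 tested histone genes were also lower in DCC control.

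Against TUBO, 28 members were lower in DCC control, 1 was higher (E2f1) and 16 were not called, beside 19.9% and 22.1% of all tested genes. The median was -0.98 over the members and 0.37 over all tested genes. Leaving out both libraries that stand apart left 18 members lower. Chaf1b differed most, with 7.23 and 5.19 CPM in DCC control against 30.8 and 36.2 CPM in TUBO (-2.44 ± 0.22, adjusted p = 1.21e-05). Mcm5 was at 34.2 and 22 CPM in TUBO (-1.96 ± 0.25, adjusted p = 1.22e-04), between its DCC control and early lesion levels. Rrm2, at 40.2 and 31.7 CPM in TUBO, gave -1.89 ± 0.18 (adjusted p = 1.33e-05). Gins1, a subunit of the complex that activates the helicase, lay at 2.01 and 1.11 CPM against 5.38 and 5.61 CPM (-1.83 ± 0.46, adjusted p = 0.00896), a call lost without DCC control replicate 2 (0.0712). Pold1 lay at 10 and 9.94 CPM against 25.2 and 30.5 CPM (-1.48 ± 0.23, adjusted p = 4.58e-04). Fen1 lay at 6.56 and 7.01 CPM against 21.5 and 12.6 CPM (-1.33 ± 0.29, adjusted p = 0.00427), a call lost without TUBO replicate 1, the higher TUBO library (0.0605). Dtl, at 8.87 and 13.4 CPM against 26.3 and 22.9 CPM, gave -1.13 ± 0.26 (adjusted p = 0.00495) and was lost with both libraries that stand apart left out (0.0888). E2f1 went against the rest, with 6.81 and 15.3 CPM in DCC control above 4.52 and 4.31 CPM in TUBO (1.33 ± 0.42, adjusted p = 0.0267). That call was lost without DCC control replicate 2 (0.292), TUBO replicate 1 (0.0863) or TUBO replicate 2 (0.13). The 16 members not called included Mcm4, at 44.9 and 47.6 CPM against 55.5 and 54.3 CPM, and Rrm1, at 34.3 and 33.5 CPM against 44.4 and 34.6 CPM. In this comparison 11 of 28 G2/M genes and 40 of 58 tested histone genes were lower in DCC control, and 0 of either list were higher.

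Between the epithelial groups, 36 members were lower in TUBO than in early lesion, 0 were higher and 9 were not called, beside 12.7% and 11.4% of all tested genes. The median was -1.32 over the members and -0.27 over all tested genes. Ccne1 differed most, at 2.97 and 2.1 CPM in TUBO against 27.2 and 24.5 CPM in early lesion (-3.35 ± 0.49, adjusted p = 8.31e-04). Rrm1 followed among the genes of nucleotide supply, at 44.4 and 34.6 CPM against 277 and 253 CPM (-2.75 ± 0.17, adjusted p = 3.77e-06). Cdc6 lay at 7.35 and 2.48 CPM against 32.2 and 30.2 CPM (-2.66 ± 0.45, adjusted p = 0.00182), where the TUBO replicates differed widely from each other but stayed far below early lesion. Lig1 lay at 20.6 and 19.6 CPM (-2.26 ± 0.20, adjusted p = 3.20e-05), Prim1 at 14.5 and 13.9 CPM (-2.24 ± 0.19, adjusted p = 3.25e-05) and Chaf1a at 19.2 and 18.5 CPM in TUBO (-2.08 ± 0.19, adjusted p = 4.66e-05). Mcm5 gave -2.06 ± 0.24 (adjusted p = 1.96e-04). The members not called were Orc1, Cdt1, Gins1, Gins2, Gins4, Pold1, Pole2, Rfc2 and Rfc4. Among them Cdt1 had the only positive value of the 45, at 27.9 and 36.3 CPM in TUBO above 25.8 and 25 CPM in early lesion (0.33 ± 0.21, adjusted p = 0.26). Of the G2/M genes 25 of 28 were lower in TUBO.

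**Figure D5:**
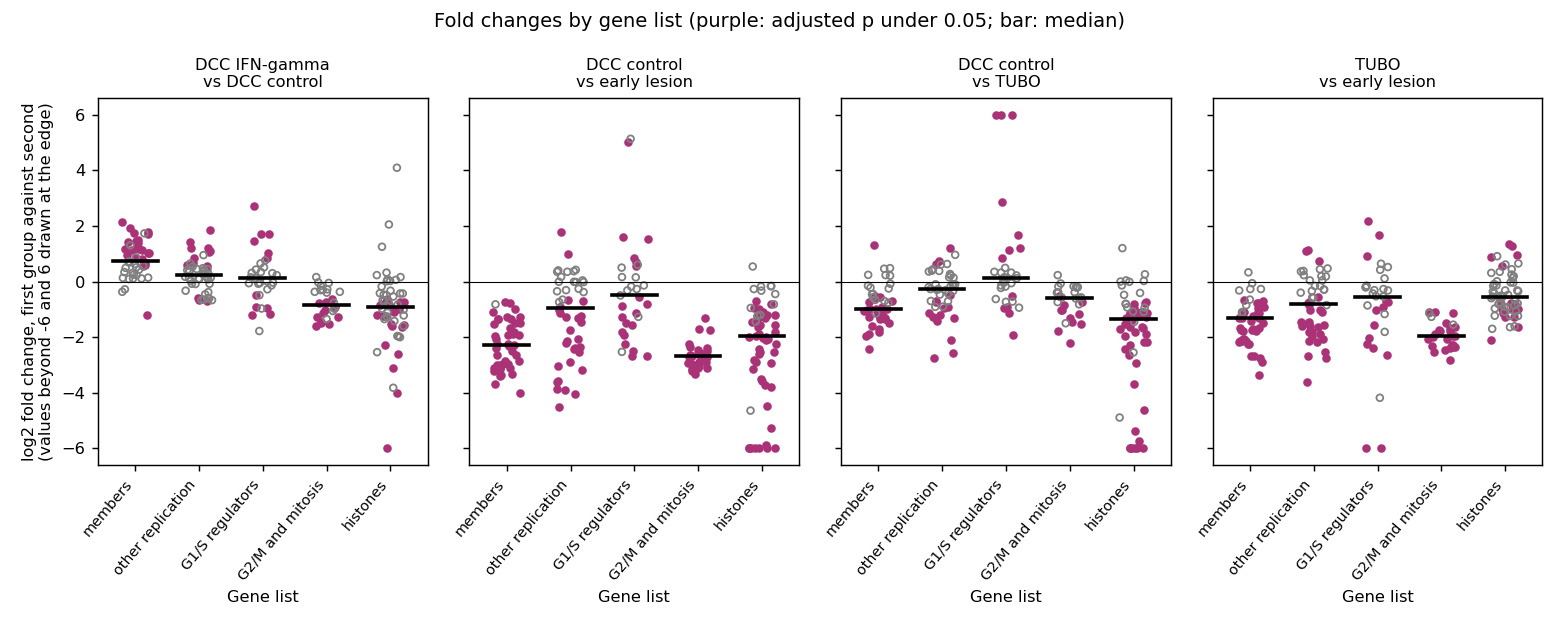
Log2 fold change of every tested gene of 5 lists (the members, other replication genes, G1/S regulators, G2/M genes and histones; points, purple where called) in 4 comparisons, with the list median as a bar and values beyond the axis drawn at its edge. The members' median is above 0 after interferon-gamma (0.72) and below 0 in DCC control against early lesion (-2.27), against TUBO (-0.98), and in TUBO against early lesion (-1.32).

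DCC IFN-gamma was set beside the tumour cells as well, in comparisons that share its libraries with those above. Against early lesion 40 members stayed lower, 1 was higher (Cdt1) and 4 were not called (Orc1, Orc6, Rfc3 and E2f1), beside 19.2% of all tested genes called lower and 22.7% called higher. The median was -1.59 over the members and -0.18 over all tested genes. Tk1 had the largest difference, at 4 and 5.21 CPM in DCC IFN-gamma against 62.1 and 64 CPM in early lesion (-3.78 ± 0.27, adjusted p = 1.91e-06). Cdc6 lay at 4.14 and 3.63 CPM against 32.2 and 30.2 CPM (-3.00 ± 0.46, adjusted p = 3.82e-04). Pola1 lay at 17.2 and 16.6 CPM against 105 and 88.4 CPM (-2.52 ± 0.17, adjusted p = 1.32e-06). The leading members of the other roles were Mcm5 (-2.30 ± 0.24), Rfc5 (-1.99 ± 0.29), Ccne1 (-2.25 ± 0.46) and Uhrf1 (-2.24 ± 0.15). Rfc3, at 38.1 and 31.6 CPM against 39.2 and 33.5 CPM, had overlapping libraries (-0.06 ± 0.19, adjusted p = 0.808). Cdt1, at 38.7 and 49.2 CPM against 25.8 and 25 CPM, was higher in DCC IFN-gamma (0.79 ± 0.21, adjusted p = 0.0103), a call that was not made without early lesion replicate 1 (0.0603) or 2 (0.0702) or without DCC IFN-gamma replicate 2 (0.0631).

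Against TUBO the members of DCC IFN-gamma showed no common direction: 9 were higher, 10 lower and 26 not called, beside 24.4% and 19.6% of all tested genes, with a median of -0.07 over the members and 0.00 over all tested genes. The MCM subunits themselves split. Mcm4 was higher at 110 and 97.3 CPM against 55.5 and 54.3 CPM (0.92 ± 0.15, adjusted p = 5.40e-04), and Mcm7 lower at 54 and 36.2 CPM against 90.5 and 81 CPM (-0.93 ± 0.19, adjusted p = 0.00296). E2f1 was higher at 8.72 and 15.6 CPM against 4.52 and 4.31 CPM (1.46 ± 0.42, adjusted p = 0.0162), a call lost without either TUBO library (0.0603 and 0.0947) or without DCC IFN-gamma replicate 2 (0.0714). Lig1 was higher at 31 and 42.3 CPM against 20.6 and 19.6 CPM (0.86 ± 0.19, adjusted p = 0.00383), and Orc6, a subunit of the origin recognition complex, at 21.8 and 17.6 CPM against 11.7 and 11.4 CPM (0.77 ± 0.22, adjusted p = 0.0144). The call of Orc6 was lost without DCC IFN-gamma replicate 1 (0.0712) and without TUBO replicate 2 (0.065). Lower members were led by Pola1, at 17.2 and 16.6 CPM against 47.4 and 43.4 CPM (-1.43 ± 0.17, adjusted p = 6.07e-05). Rfc2, at 15.7 and 14.4 CPM against 27.8 and 37.5 CPM (-1.12 ± 0.21), Tk1, at 4 and 5.21 CPM against 10 and 9.92 CPM (-1.11 ± 0.25), and Chaf1b, at 16.6 and 16.2 CPM against 30.8 and 36.2 CPM (-1.03 ± 0.21), were lower without overlap. Gins4, at 25.3 and 19.7 CPM against 36.2 and 40 CPM, was lower by a smaller step (-0.76 ± 0.19, adjusted p = 0.00794), a call lost without TUBO replicate 2 (0.0518). Dtl, at 17.9 and 12.3 CPM against 26.3 and 22.9 CPM, sat near the threshold (-0.70 ± 0.25, adjusted p = 0.0455). It was lost without DCC IFN-gamma replicate 2 (0.205), either early lesion library (0.0746 and 0.0724) or either TUBO library (0.258 and 0.0772). The G2/M genes were 22 of 28 lower in DCC IFN-gamma than in TUBO and 0 higher, beside this even split of the members.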

How the data were processed

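The authors deposited 1 table of raw read counts per gene symbol. Per the submitters' processing notes, the tools were TopHat and HTSeq 0.6.1 and the build mm10. Per the labels, libraries came from total RNA with a Nugen Ovation kit. Sources used here do not give the annotation or strand setting. Lines that name no gene (35.2% to 63.7% of reads) were left out.

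From the counts, edgeR 4.0.16 (R 4.3.3) fitted 4 group means over the 8 libraries, after filterByExpr (minimum count 10) had left 17069 of 23478 genes. The fit had 4 residual degrees of freedom and was checked on simulated data with 200 changed genes. For DCC IFN-gamma against DCC control it recovered 43% of 2-fold and 74% of 4-fold changes. It also called 16 unchanged genes there, and between 7 and 13 in each of the other comparisons. Beside at most 200 true calls, 16 false ones are a larger share than the threshold on the adjusted p is meant to allow. Calls for DCC IFN-gamma against DCC control may therefore include more false ones than that threshold implies. In the other comparisons 27% to 33% of 2-fold changes were recovered, so a gene without a call may still differ. Far more genes were called in the data than the 200 changed in the simulation, so these rates may not carry over to the data. Each standard error is the absolute log2 fold change over the root of F. P-values measure only the spread between these samples. Lengths and positions come from GENCODE M21, which held 21871 of the symbols.

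Members and lists were chosen with earlier results of these data known. In each comparison the called member with the largest change per role and direction is named, and of each other list up to 3 genes per direction. Some genes that this rule names are not reported here. The 16 alternatives were RLE and upper quartile factors, 2 filters (none, and at least 50 counts in 2 libraries), a replicate block, DESeq2 1.42.0, a fit of 2 groups, 8 fits without 1 library, and 1 without both that stand apart. Their use for genes of the other lists was added after seeing the data.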

Additional observations from a re-analysis of the deposited data

How the results depend on the processing

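After interferon-gamma, upper quartile factors gave 14 members higher with a median of 0.51, and with both libraries that stand apart left out 9 members were higher and 0 lower, with 1017 of all genes higher and 637 lower. DESeq2 called 2272 of all genes lower. Leaving out 1 library at a time gave 14 to 24 members higher and 0 to 1 lower, 1193 to 2500 of all genes higher and 827 to 1628 lower, and a median of 0.67 to 0.84. Of the members without a call, 5 changed sign. With upper quartile factors Mcm7 was at -0.08, Rfc1 at -0.06, Rfc2 at -0.08, Rfc4 at -0.11 and E2f1 at -0.06. With single libraries left out Mcm7 ranged from -0.20 to 0.42, Rfc4 from -0.35 to 0.46, Rfc1 from -0.01 to 0.31 and E2f1 from -0.33 to 0.84. With both libraries that stand apart left out Rfc1 was at -0.01 and E2f1 at -0.33. For DCC control against early lesion, leaving both out gave 2054 of all genes higher and 2058 lower. For DCC control against TUBO leaving both out gave 18 members lower, and single libraries left out gave 0 to 1 members higher and a median of -1.01 to -0.83. For TUBO against early lesion leaving both out gave 793 of all genes higher and 1151 lower and a median of -1.44, and single libraries gave 1036 to 2522 higher, 1278 to 2861 lower and a median of -1.53 to -1.29. For DCC IFN-gamma against early lesion leaving both out gave 0 members higher, upper quartile factors gave a median of -1.72, and single libraries gave 0 to 1 members higher and a median of -1.70 to -1.45. For DCC IFN-gamma against TUBO leaving both out gave 5 members higher, as did the fit of 2 groups, and single libraries gave 3 to 10 higher, 6 to 10 lower and a median of -0.32 to 0.21. Fits that leave libraries out have fewer samples, and for the other settings the cause was not tested.

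Deviations of replicates with the same number correlated between -0.42 (DCC control with early lesion) and 0.11. The replicate numbers are only numbers, so these values cannot decide whether libraries of different groups were linked. With the replicate block, after interferon-gamma 23 members were higher and 1 lower (Pole was gained, and of the other lists' named genes Cdkn1b and Mtbp were lost at 0.0623 and 0.0608), 43 were lower in DCC control than in early lesion (Orc1 was lost), and 37 were lower in TUBO than in early lesion. In the last of the comparisons with early lesion, that of DCC IFN-gamma, 37 were lower under the block, without Pola2, Pole2 and Rpa2. Counts against TUBO stayed at 1 higher and 28 lower for DCC control and 9 higher and 10 lower for DCC IFN-gamma. With 2 libraries per group and 4 residual degrees of freedom, members of few reads had the widest errors: Orc1, at 0.99 to 6.1 CPM, had a standard error of 0.73 after interferon-gamma, so its 3.32-fold difference was not called.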
